A study of Homo sapiens with 10 samples.

Results

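Of the 1846 genes with a LINC number among the 62656 genes of the deposited table, 137 (7.42%) had a mean level of at least 0.5 RPKM over the 10 libraries of PC3 cells and form the set of LINC RNAs described here. RPKM is the number of reads per kilobase of gene, scaled in this table by the median-of-ratios size factor of each library. Another 1239 LINC genes had reads but lay under this limit, and 470 were at 0 in every library. The members were chosen by their level, so levels are given as a description and only the comparison of GW3965 with DMSO is tested.

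PC3 is an epithelial cell line from a bone metastasis of a prostate cancer. The cells were starved overnight and then kept for 24 h in RPMI-1640 with 2 mM L-Glu and either the vehicle DMSO (5 libraries) or 1 µM of GW3965, a synthetic agonist of the liver X receptors (LXRs), which switch on cholesterol export and lipid synthesis (5 libraries). Both groups are the same unmodified line, and the labels do not say whether the 5 libraries of a group came from separate cultures, so the p-values measure the spread between these libraries. Strand-marked libraries were made from total RNA after removal of ribosomal RNA, while the labels name the molecule polyA RNA.

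LINC is the naming root given to long intergenic non-coding RNAs that have no better known function to be named for. Such RNAs are transcribed, spliced and often polyadenylated like messenger RNAs, but most encode no known protein, are made at low levels and are found in few cell types. The described ones act in many ways, among them control of a neighbouring gene, binding of proteins or microRNAs, and, for some, coding of a short peptide.

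The libraries held between 30429755 and 41636852 recovered reads, of which 12.0% to 23.2% fell on 7SL RNAs. The LXR target genes ABCA1, ABCG1 and SREBF1 rose with GW3965 by 2.29, 2.13 and 0.74 on the log2 scale (limma, adjusted p = 0.00063, 0.000124 and 0.00362). Epithelial keratins were abundant (KRT8 36.6, KRT18 49.6 and KRT19 149 RPKM), as was vimentin (VIM, 69.5 RPKM), whereas the prostate-specific antigen gene KLK3 was at 0 in every library and the leukocyte marker PTPRC averaged 0.0164 RPKM. Libraries DMSO 1, GW3965 1 and GW3965 2 lay together at one end of the main axis of a principal component analysis, apart from the other 7. That principal component analysis used the scaled reads of well-covered genes only.

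The level of the LINC RNAs was unevenly distributed. By level, 5 members had at least 10 RPKM, 5 lay between 5 and 10 RPKM, 72 between 1 and 5 RPKM and 55 under 1 RPKM. The median was 1.23 RPKM, beside 3.11 RPKM over all 20402 genes above the same limit. LINC02582 alone gave 18.5% of the summed level of the 137 members, and the 10 most abundant gave 47.7%. Just inside the limit lay LINC01443 (0.510 RPKM), LINC01410 (0.503 RPKM) and LINC01134 (0.5003 RPKM), and just outside it LINC00862 (0.499 RPKM), LINC02340 (0.493 RPKM) and LINC01012 (0.485 RPKM).

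**Figure D1:**
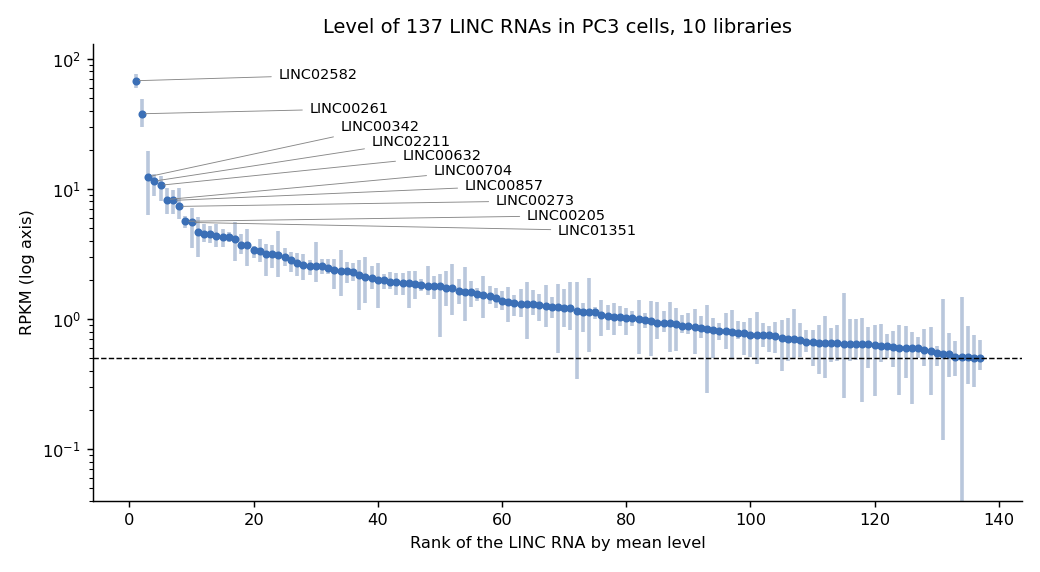
Mean level of each of the 137 LINC RNAs (points, RPKM on a log axis) against its rank, with the range over the 10 libraries as a vertical bar and the limit of 0.5 RPKM as a dashed line. The level falls from 67.8 RPKM for LINC02582 to 12.4 RPKM for the third gene and 5.52 RPKM for the tenth; the bar of LINC00644, which had 1 library at 0, runs to the lower edge.

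LINC02582 was the most abundant LINC RNA. It lies on chromosome 18 (chr18:73324941-73349878, plus strand, hg38) with 5 exon blocks in GENCODE 29 and no coding gene nearer than NETO1, 456795 bases away. Its levels were 60.5, 67.9, 63.9, 59.9 and 63.2 RPKM in DMSO libraries 1 to 5, and 72.4, 74.6, 68.3, 71.6 and 75.9 RPKM in GW3965 libraries 1 to 5. Every GW3965 library was above every DMSO library, which held for no other of the 137 LINC RNAs and for 1.35% of all genes tested (1.84% with both directions counted). The means were 63.1 ± 3.20 and 72.6 ± 2.96 RPKM (SD, n = 5), which gives 0.20 (SE 0.05) as the log2 fold change. The adjusted p was 0.267 in limma, and the two-sided exact permutation p, unadjusted, was 0.00794, the smallest that the labellings of 5 against 5 libraries can give. LINC02582 did not pass the threshold over all genes.

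Part of LINC02582 is sequence that also stands in other transcripts: 14% of its 50-base windows were found in 35 other genes of GENCODE 29. Both strands were searched for this share and for those of the other members. One of these is ESRG, a transcript of a copy of the endogenous retrovirus HERVH. LINC02474 also shares windows of 50 bases with ESRG on the same strand.

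LINC02582 and LINC02474 were the LINC RNAs that shared windows with ESRG, and both were higher with GW3965 at an unadjusted p under 0.05. LINC02474 (chr1:221966341-221984964, plus strand) had 2.80, 3.52, 3.36, 3.92 and 4.52 RPKM in DMSO and 3.75, 4.21, 4.08, 5.44 and 5.60 RPKM in GW3965, so that the groups overlapped. Its log2 fold change was 0.34 (SE 0.14, limma adjusted p = 0.672, exact permutation p = 0.0873). ESRG itself had 4.65, 5.63, 5.04, 5.66 and 5.62 RPKM in DMSO and 5.75, 6.23, 7.10, 6.11 and 6.60 RPKM in GW3965, without overlap (log2 fold change 0.25, SE 0.08, limma adjusted p = 0.405). Over all tested genes, 17 besides ESRG shared at least 1 such window, both LINC RNAs included. Of these 17 genes, 16 were higher with GW3965, the median of their log2 fold changes was 0.20, and 7 had an unadjusted p under 0.05 on the higher side and 0 on the lower side. Among all genes tested 51.1% were higher and 4.64% were higher at an unadjusted p under 0.05. None of the 17 passed the adjusted threshold in limma. This list was drawn up after the values of LINC02582 and LINC02474 had been seen and got no test, and reads from the shared stretches may have been counted for more than 1 of these genes, whose part in the result was not tested.

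LINC00261, the second most abundant LINC RNA, lies beside FOXA2, the gene of an endoderm and liver transcription factor, which its RNA is known to help induce in endoderm differentiation. Its levels were 44.5, 33.2, 29.9, 49.2 and 41.0 RPKM in DMSO and 35.7, 34.8, 37.7, 41.5 and 30.6 RPKM in GW3965. Every GW3965 library lay inside the DMSO range, and the DMSO libraries spread more widely (39.5 ± 7.96 against 36.1 ± 3.98 RPKM, SD, n = 5). The log2 fold change was -0.11 (SE 0.13, limma adjusted p = 0.937). FOXA2 averaged 21.1 RPKM with a log2 fold change of 0.02 (SE 0.09). In GENCODE 29, 85.4% of the windows of LINC00261 (chr20:22547671-22578642, minus strand) are also in other genes, chiefly AL121722.1 on the same strand. No level of AL121722.1 was at hand in the deposited data.

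The next 3 genes by level were LINC00342, LINC02211 and LINC00632, between 10.7 and 12.4 RPKM. LINC00342 (chr2:95807118-95816215, minus strand) had 17.4, 10.7, 8.67, 6.27 and 15.9 RPKM in DMSO and 19.5, 19.3, 10.1, 9.07 and 6.86 RPKM in GW3965. Its high libraries were DMSO 1, DMSO 5, GW3965 1 and GW3965 2, so both groups held high and low libraries (log2 fold change 0.11, SE 0.35, limma adjusted p = 0.981). LINC02211 (chr5:25187800-25324386, plus strand) had 13, 9.25, 8.81, 12.9 and 11.2 RPKM in DMSO and 11.7, 12.2, 11.1, 12.3 and 12.3 RPKM in GW3965. Its DMSO libraries covered the whole range of the GW3965 libraries (log2 fold change 0.13, SE 0.11, limma adjusted p = 0.889). Of the windows of LINC00342, 28.5% are also in other genes, and of those of LINC02211 28.1%. NORAD, which averaged 110 RPKM, is among the genes that share windows with LINC02211. The part of shared reads in the levels of LINC00342 and LINC02211 was not tested.

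Starts of transcription from RefSeq (GRCh38.p14) were at hand for 87 of the 137 members, with 100 starts in all. The promoters of LINC00261 (chr20:22578593-22578892, minus strand) and LINC02211 (chr5:25190703-25191002, plus strand) are shown as those of the most abundant members with such an entry, and because their composition differs: 37.0% against 72.0% of the bases are G or C. Capitals mark the letters TATAAA or AGGTCA on either strand.
LINC00261: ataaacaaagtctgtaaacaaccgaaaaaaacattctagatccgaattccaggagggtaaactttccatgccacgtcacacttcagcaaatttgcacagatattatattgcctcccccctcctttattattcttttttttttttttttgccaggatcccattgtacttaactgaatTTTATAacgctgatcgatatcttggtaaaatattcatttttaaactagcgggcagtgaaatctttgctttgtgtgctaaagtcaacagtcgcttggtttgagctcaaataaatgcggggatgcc
LINC02211: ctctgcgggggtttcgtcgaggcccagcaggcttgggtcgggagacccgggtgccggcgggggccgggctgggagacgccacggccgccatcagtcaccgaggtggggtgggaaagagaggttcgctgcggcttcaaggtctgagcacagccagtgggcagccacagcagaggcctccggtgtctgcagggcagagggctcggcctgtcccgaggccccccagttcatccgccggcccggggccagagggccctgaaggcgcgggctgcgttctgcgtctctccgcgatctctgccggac
The letters TATAAA occurred on either strand in 18.0% of the 100 LINC RNA starts and in 11.5% of all 35116 starts. AGGTCA, the core site of nuclear receptors, was found in 15.0% and 13.8%. The exact direct repeat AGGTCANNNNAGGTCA, the spacing that LXRs prefer, was in none of the 100 starts and in 7 (0.0199%) of all starts. A string this rare would hardly be met in 100 starts, and imperfect repeats were not searched. Its absence therefore says nothing about LXR sites. These matches are a description of the windows of 300 bases only.

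LINC00632 is the host gene of CDR1-AS, a circular RNA known for its many binding sites for the microRNA miR-7. It lies on the X chromosome (chrX:140709562-140793215, plus strand) and runs antisense to the coding gene CDR1. The reads of the table are counted per gene, so circular and linear RNA cannot be told apart. The miR-7 sequence, with its seed (bases 2 to 8) in capitals, and bases 296 to 595 of transcript LINC00632-211, with the matches GTCTTCC to the seed in capitals, are shown because these sites set LINC00632 apart from the other members.
hsa-miR-7-5p: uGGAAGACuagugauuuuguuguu
LINC00632-211: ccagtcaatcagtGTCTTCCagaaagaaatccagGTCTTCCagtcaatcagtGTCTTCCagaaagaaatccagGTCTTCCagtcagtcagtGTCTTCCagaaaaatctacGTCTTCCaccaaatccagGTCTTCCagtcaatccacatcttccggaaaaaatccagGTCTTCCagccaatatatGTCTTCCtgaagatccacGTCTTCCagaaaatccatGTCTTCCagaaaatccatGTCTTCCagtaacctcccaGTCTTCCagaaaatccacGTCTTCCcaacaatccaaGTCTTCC
The stretch holds 15 matches, and the whole transcript of 1184 bases holds 53. Of the 25 transcripts of LINC00632 in GENCODE 29, 5 had more than 10 matches. The 609 transcripts of the other 136 members had at most 7, in LINC02193, and 555 of them had 0.

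LINC00632 had 11.5, 8.70, 8.07, 9.74 and 10.1 RPKM in DMSO. In GW3965 it had 12.3, 12.4, 12.4, 12.5 and 8.95 RPKM. GW3965 libraries 1 to 4 were above all DMSO libraries, and GW3965 library 5 lay inside the DMSO range. The means were 9.62 ± 1.33 and 11.7 ± 1.55 RPKM (SD, n = 5), with 0.28 as the log2 fold change (SE 0.12, limma adjusted p = 0.657, exact permutation p = 0.0635).

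The remaining 5 of the 10 most abundant members lay between 5.52 and 8.28 RPKM, and their groups overlapped. LINC00704, also named MANCR, was described as a mitosis-associated RNA of breast cancer, and had a log2 fold change of 0.13 (SE 0.13). LINC00857 (8.15 RPKM) had -0.03 (SE 0.12), LINC00273 (7.33 RPKM) -0.22 (SE 0.13) and LINC01351 (5.52 RPKM) 0.12 (SE 0.19). LINC00205, which starts 152 bases from POFUT2 on the other strand, had 5.65 ± 0.446 RPKM in DMSO and 5.62 ± 0.407 RPKM in GW3965 (SD, n = 5).

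**Figure D2:**
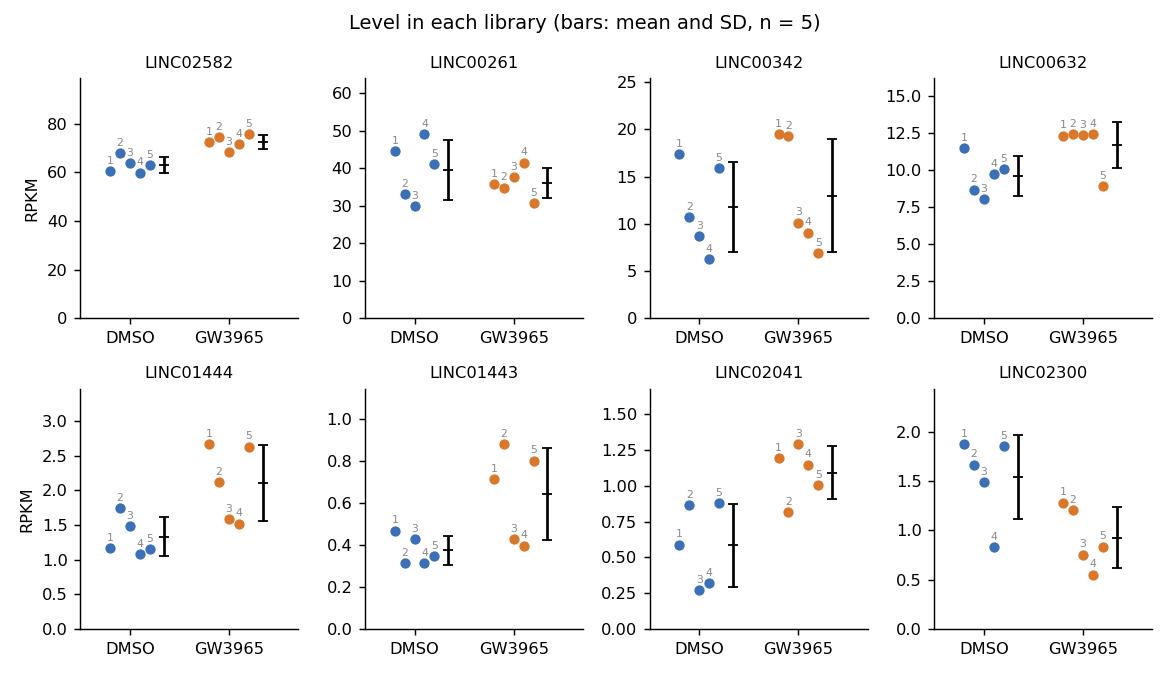
Level (RPKM) of 8 LINC RNAs in each library, DMSO in blue and GW3965 in orange, with the replicate number above each point and the mean and SD (n = 5) beside it. LINC02582 is the gene whose groups do not overlap; in LINC00632 the library GW3965 5 lies apart at 8.95 RPKM, and in LINC00342 both groups hold high and low libraries.

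The question put to the whole set was whether activation of LXR changes LINC RNAs in these cells. In limma, 0 of the 137 LINC RNAs passed an adjusted p of 0.05, beside 32 of the 20402 genes tested (0.157%). At an unadjusted p under 0.05 there were 9 LINC RNAs (6.57%), beside 6.99% of all genes, and voom on the recovered reads also called 0 and had 9 at an unadjusted p under 0.05. The lowest adjusted p was that of LINC02582. With GW3965, 61 members were higher and 76 lower, and the median log2 fold change was -0.02, beside 0.00 over all genes tested. The log2 fold change was under 0.2 in size for 109 members and at least 0.5 for 6.

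The 9 LINC RNAs at an unadjusted p under 0.05 were 8 higher and 1 lower, beside 4.64% and 2.36% of all genes tested. Besides LINC02582, LINC02474 and LINC00632, the higher ones were LINC01444, LINC01443, LINC01836, LINC01670 and LINC02041. LINC01836 (chr19:782755-785080, plus strand, near PTBP1) had 3.91, 3.79, 3.55, 4.48 and 3.95 RPKM in DMSO and 4.70, 4.23, 4.74, 4.48 and 4.92 RPKM in GW3965. DMSO library 4 reached into the GW3965 range (log2 fold change 0.23, SE 0.07, limma adjusted p = 0.419, exact permutation p = 0.0159). LINC01670 (chr21:5499151-5502542, minus strand) rested on 1084 reads and had a log2 fold change of 0.32 (SE 0.10, limma adjusted p = 0.423), with 96.0% of its windows also in other genes. LINC02041 (chr3:187448845-187449450, plus strand) had the highest fold change of the members, 0.90 on the log2 scale (SE 0.29, limma adjusted p = 0.448), on 74 reads in all 10 libraries and between 2 and 12 per library.

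LINC01444 and LINC01443 overlap on opposite strands of chromosome 18 (chr18:14969001-14970468, minus strand, and chr18:14946267-14974215, plus strand). LINC01444 had 1.17, 1.75, 1.48, 1.08 and 1.15 RPKM in DMSO and 2.66, 2.12, 1.58, 1.52 and 2.63 RPKM in GW3965. LINC01443 had 0.469, 0.315, 0.430, 0.314 and 0.347 RPKM in DMSO and 0.714, 0.880, 0.427, 0.398 and 0.804 RPKM in GW3965. In both, GW3965 libraries 1, 2 and 5 were above all DMSO libraries and GW3965 libraries 3 and 4 lay inside the DMSO range. The log2 fold changes were 0.61 (SE 0.19, limma adjusted p = 0.399) and 0.61 (SE 0.25, limma adjusted p = 0.657). The exact permutation p was 0.0317 for LINC01444 and 0.0476 for LINC01443. The exons of the 2 genes do not overlap in GENCODE 29.

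The lower one of the 9 was LINC02300 (chr14:28592223-28613623, minus strand). It had 1.87, 1.67, 1.49, 0.830 and 1.86 RPKM in DMSO and 1.28, 1.2, 0.755, 0.552 and 0.835 RPKM in GW3965. DMSO library 4 was the only DMSO library inside the GW3965 range. The log2 fold change was -0.68 (SE 0.25, limma adjusted p = 0.570, exact permutation p = 0.0397), on 292 reads. The main axis of the principal component analysis was also used as a covariate, an alternative chosen after the data were seen. LINC02300 then passed the threshold with a limma adjusted p of 0.0328, beside 146 genes (0.716%) called in all. The next 5 lower ones by p were LINC01982 (-0.80, SE 0.36, 127 reads), LINC00235 (-0.26, SE 0.13), LINC01465 (-0.25, SE 0.12), LINC00412 (-0.40, SE 0.22) and LINC01389 (-0.65, SE 0.39, 91 reads), with limma adjusted p between 0.713 and 0.816. LINC01465 lies on the strand opposite the microRNA gene MIRLET7I.

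**Figure D3:**
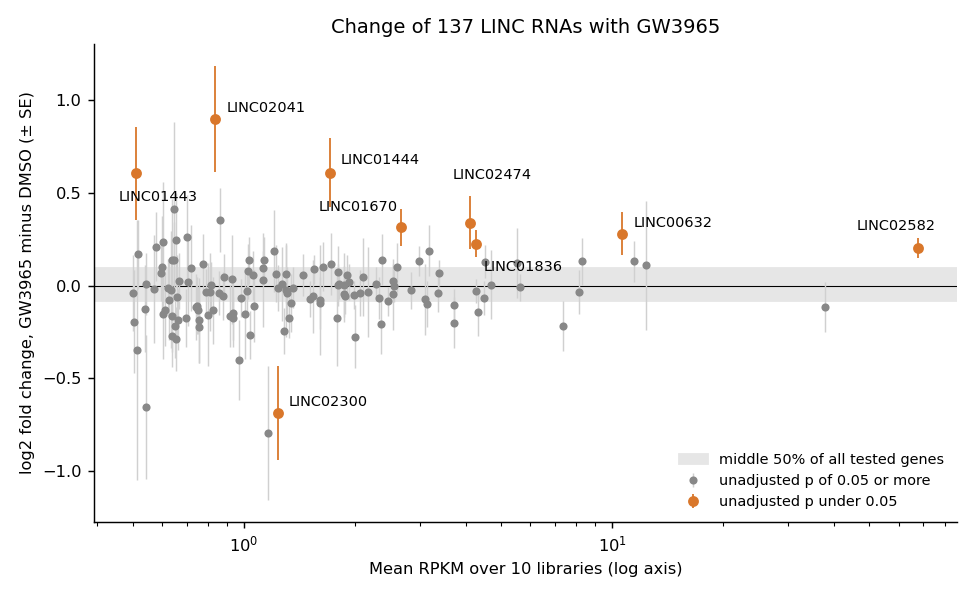
Log2 fold change of each LINC RNA (GW3965 minus DMSO, log2(RPKM + 0.1), bars: SE) against its mean level (log axis), with the 9 members at an unadjusted p under 0.05 in orange and the middle 50% of all tested genes as a grey band. Changes of at least 0.5 in size are seen in 6 members, all under 2 RPKM, and LINC02582 stands at the right with 0.20.

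The libraries of a group varied by a median SD of 0.23 on the log2 scale over the LINC RNAs, beside 0.18 over all tested genes. With a pseudocount of 1 in place of 0.1 these medians were 0.141 and 0.135, and with 0.01 they were 0.25 and 0.19, so the gap depends on the pseudocount. Between 0.5 and 1 RPKM the median SD was 0.28 for the LINC RNAs and 0.38 for all genes, where the SD that counting error alone gives, computed from the recovered reads, was also lower for the LINC RNAs (medians 0.15 and 0.26). Between 2 and 5 RPKM the median SD was 0.19 and 0.16. For the 5 members between 5 and 10 RPKM it was 0.22 beside 0.13, and for the 5 above 10 RPKM 0.20 beside 0.14. Divided by counting error, the measured SD was a median of 1.65 times as large for the LINC RNAs and 1.59 times for all genes between 0.5 and 1 RPKM, and 1.6 and 1.7 times between 1 and 2 RPKM. It was 2.5 and 2.1 times between 2 and 5 RPKM, 3.18 and 2.77 times between 5 and 10 RPKM and 14.6 and 4.31 times above 10 RPKM. Above 10 RPKM the median SD from counting error was lower for the LINC RNAs (0.0187) than for all genes (0.0291), which widens that gap. Over all levels together the medians were 1.91 and 2.17 times, with 55 of the 137 LINC RNAs under 1 RPKM and another 43 under 2 RPKM. For 62 members (45.3%) it was over 2 times as large, beside 55.8% of all tested genes, and for 7 members it was no larger than counting error.

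The lowest spreads were those of LINC02582 (SD 0.07), LINC00667 (SD 0.08) and LINC01278 (SD 0.09). The highest were those of LINC00644 (SD 1.24 on 53 reads), LINC00685 (SD 0.83 on 98 reads) and LINC01982 (SD 0.65 on 127 reads). LINC00644 ranged from 0 RPKM in GW3965 library 4 to 1.46 RPKM in DMSO library 5. LINC00342 combined a high spread (SD 0.64) with many reads (38140), and its SD was 25.4 times that from counting error. For LINC00261 and LINC00632 the factor was 14.8 and 14.6. Windows of LINC00342 (28.5%) and LINC00261 (85.4%) are also in other genes, and the part of shared reads in their spread was not tested.

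**Figure D4:**
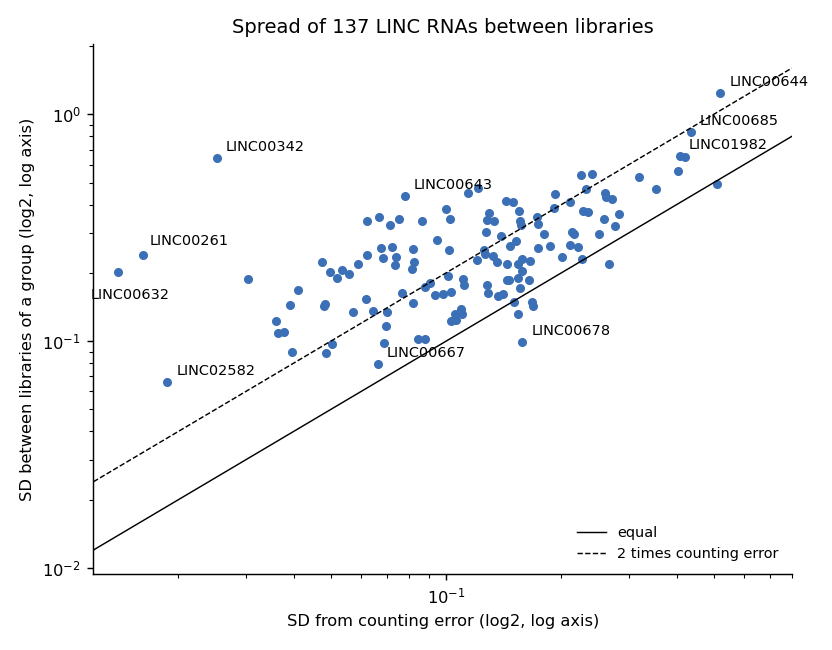
SD between the libraries of a group against the SD that counting error alone gives, both of log2(RPKM + 0.1) on log axes, 1 point for each of the 137 LINC RNAs; the solid line marks equality and the dashed line 2 times counting error. LINC00342, LINC00261 and LINC00632 lie far above the lines at the left, LINC02582 has the lowest SD, and LINC00644 the highest.

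The LINC RNAs also moved together between libraries, in a way that crosses the 2 groups. The median deviation of the 137 members from their own means was 0.11 in DMSO 1, 0.12 in GW3965 1 and 0.11 in GW3965 2, and -0.11 in DMSO 4 and in GW3965 5, on the log2 scale. Over all tested genes the same libraries lay between -0.02 and 0.04, a median that the scaling of the libraries holds near 0. In GW3965 1, 99 members were above their own mean, and in GW3965 5, 45. For 22 members (16.1%) the 3 highest libraries were exactly DMSO 1, GW3965 1 and GW3965 2, beside 5.97% of all tested genes. The same 3 libraries were the 3 lowest for 0.73% of the members and for 11.8% of all tested genes. Other genes thus also followed this axis, more of them in the other direction. Of the 22 members, LINC00342 had the widest gap, with means of 18.8 RPKM in these 3 and 9.66 RPKM in the other 7 libraries. LINC01435, LINC00397 and LINC00886 followed. These 3 libraries were picked by the principal component analysis of the same reads, so the counts are a description. With the 3 libraries left out, 0 LINC RNAs were called by limma among 18 genes called in all, and the median log2 fold change of the members was -0.05.

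**Figure D5:**
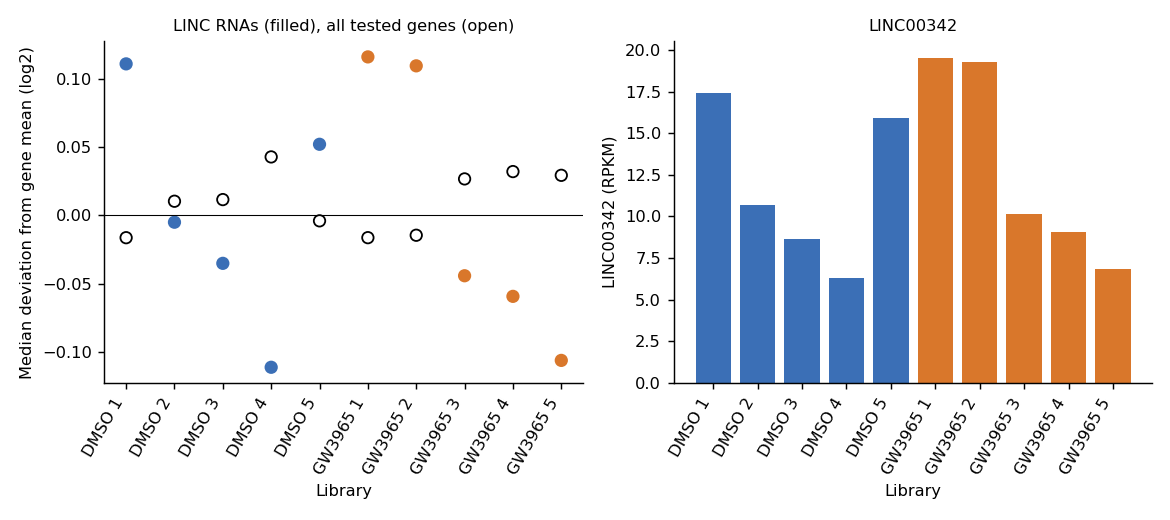
Left, the median deviation of the 137 LINC RNAs (filled points) and of all tested genes (open points) from each gene's own mean, by library, in log2 units; right, the level of LINC00342 (RPKM). DMSO libraries are blue and GW3965 libraries orange; DMSO 1, GW3965 1 and GW3965 2 are the high libraries in both panels, together with DMSO 5 for LINC00342.

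Lists of known LINC genes were looked up in the same fit. Of 28 LINC RNAs named in cancer studies, 25 were found in the table and 12 could be tested, 11 of them members and CYTOR (LINC00152) the other. Limma called 0 of the 12, and 0 had an unadjusted p under 0.05, beside 0.157% and 6.99% of all genes tested. In so short a list 0 lies near these shares, and the 11 members were already counted above. With GW3965, 5 of the 12 were higher and 7 lower, and their median log2 fold change was -0.03. The most positive was LINC01116 (3.17 RPKM, 0.19, SE 0.14) and the most negative LINC00511 (0.660 RPKM, -0.18, SE 0.16). LINC00963 and LINC00920, both studied in prostate cancer, had 2.54 and 3.36 RPKM and log2 fold changes of 0.03 (SE 0.09) and -0.04 (SE 0.10). LINC00844, another RNA known from prostate, was under the limit with 0.0142 RPKM.

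Some genes first numbered as LINC were later reported to encode a small protein, and a part of them was renamed. Of 10 LINC numbers listed for such reports 8 were found and 5 tested, and limma called 0, with 0 at an unadjusted p under 0.05. Among all genes tested the shares were 0.157% and 6.99%, so 0 is near them in lists as short as this and the next. SMIM26 (16.4 RPKM), NBDY (10.3 RPKM), SMIM30 (6.81 RPKM) and BRD3OS (3.95 RPKM) now carry other symbols, and LINC00467 (0.984 RPKM) is the one that is still a member. One of the 5, NBDY, was higher with GW3965 (0.04, SE 0.06) and 4 were lower, SMIM30 by most (-0.09, SE 0.11). Of 15 long non-coding RNAs with a name of their own, 6 could be tested and 0 were called by limma, with 0 at an unadjusted p under 0.05. NORAD was the most abundant of them at 110 RPKM (log2 fold change 0.16, SE 0.11), and MALAT1, a nuclear speckle RNA, was at 2.76 RPKM (0.25, SE 0.19).

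A coding gene started within 1000 bases on the other strand and pointed away for 13 LINC RNAs, and 12 of these partners could be tested. Each of the 12 was more abundant per length than its LINC RNA, between 1.6 and 23.0 RPKM. The 2 members of a pair had fold changes of the same sign in 7 of the 12. Limma called 0 of the partners, beside 0.157% of all genes tested. SLC12A2 had a log2 fold change of 0.19 (SE 0.21) beside LINC01184 with 0.06, and CAPN15 -0.16 (SE 0.12) beside LINC00235 with -0.26. LINC01351 was the exception in level: its partner BRINP3 was under the limit. Where a coding gene overlapped the LINC RNA on the opposite strand, the signs were the same in 9 of 11 tested pairs. For overlaps on the same strand it was 4 of 6, and limma called 0 of the partners in both. Some of these pairs share exon bases, and the part of shared reads was not tested. LINC01578, known as CHASERR, is named here after its values were seen, for its known control of the neighbouring chromatin remodeller gene CHD2. It had 3.31 ± 0.267 RPKM in DMSO and 3.47 ± 0.177 RPKM in GW3965 (SD, n = 5), and CHD2 had a log2 fold change of 0.19 (SE 0.09, limma adjusted p = 0.725).

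The 137 LINC RNAs differed from the 1709 other LINC genes in what the annotation says of them. The median of their exon bases in GENCODE 29 was 2007, beside 1204 for the others, with a median of 4 exon blocks in both. The gene lengths recovered from the deposited RPKM had a median of 2842 bases over the members and equalled those of GENCODE 29 for 56 of the 137, so for most members the exons, windows and overlaps given here are not those of the gene model behind the level. A single exon block was annotated for 20 of 137 members and for 44 of 1709 others. By type, 109 were lincRNA, 12 antisense and 11 processed transcripts. Members were most frequent among the LINC genes of chromosome 7 (8 of 31) and X (7 of 28), and chromosome 4 had 0 among 133. The exons of 48 members overlapped those of another gene, 38 on the opposite strand. For 28 members over 20% of the 50-base windows were also in other genes, with both strands searched. For these the counting of shared reads could move the level. With reads counted by strand, windows shared through an overlap on the opposite strand would not do so, but the strand setting is not given.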

How the data were processed

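RNA of PC3 cells was sequenced as single reads of 50 bases in 5 DMSO and 5 GW3965 libraries, grouped by their titles. The authors aligned the reads, counted them per gene and deposited RPKM values of 62656 genes. The submitters' processing notes name HISAT2 2.1.0, HTSeq 0.11.2 and hg38, the study's methods another HISAT2 release and a mouse genome; all gene identifiers are human. The annotation release, the strand setting and the handling of reads with several matches are not given in the sources used here.

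Whole reads were recovered from the steps of the deposited RPKM values, and this gave whole reads (within 0.001) for 99.98% of all values other than 0. The scale of each library equalled its median-of-ratios size factor. Totals lay between 30429755 and 41636852 reads. Errors from reads cover counting only, since PCR reads are not independent molecules. No pair of libraries was near-identical (chi-square per degree of freedom at least 7.47).

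GW3965 was compared with DMSO by limma (version 3.58.1, under R 4.3.3; lmFit and eBayes with a trend) on log2(RPKM + 0.1). The fit covered all 20402 genes whose mean reached 0.5 RPKM. P-values were two-sided and Benjamini-Hochberg adjusted over these genes, and the threshold was 0.05. Fold changes are on this scale and understate those of low genes. The fit was also run on simulated data with known changes larger than those of most members and no axis shared between libraries. This run therefore cannot show how well changes of the size seen here are found. Single genes also got an exact permutation test of mean RPKM over all labellings. The alternatives were other pseudocounts (1 and 0.01), filters, scalings, weights, a replicate block, voom, each library left out and 3 fits added after the data were seen. Positions, exons and shared windows are from GENCODE 29, promoters and miR-7 from RefSeq.

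The members and lists were chosen with earlier results of these data known. Named were the 10 most abundant members, the 6 higher and 6 lower ones with the lowest p, those with groups that do not overlap, the 3 highest and 3 lowest spreads, the 3 on each side of the limit, and members of the lists. LINC02474, LINC01435, LINC00397, LINC00886, LINC01184, LINC02193 and LINC01578 were named after their values or sequences were seen. A few marker genes, a neighbouring gene and transcript stretches are not reported here.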

Additional observations from a re-analysis of the deposited data

Results flagged for a closer look

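Of 76 groups of 5 libraries tested for 1 value far from the rest, 4 had one, and chance gives about 3.8. LINC00632 had its lowest GW3965 library, GW3965 5, at 8.95 RPKM and the others between 12.3 and 12.5 RPKM (gap over range 0.970). LINC02300 had DMSO 4 at 0.830 RPKM and the others between 1.49 and 1.87 RPKM (0.713). LINC00467 had DMSO 2 at 0.846 RPKM and the others between 1.03 and 1.11 RPKM (0.713). LINC00665 had DMSO 5 highest at 0.961 RPKM and the others between 0.741 and 0.781 RPKM (0.802). The cause was not tested for any of the 4.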

How the results depend on the processing

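The number of LINC RNAs called stayed at 0 under 22 of 23 alternatives, leaving out each library in turn included, and was 1 (LINC02300) with the main principal component axis as a covariate. Over all genes the calls ranged from 16 to 146, the former with the replicate number as a block. The labels do not say whether libraries of the same number form pairs. The correlations of same-numbered libraries were 0.15, -0.05, 0.04, 0.16 and -0.14, which cannot settle it. In limma the replicate block called 0 LINC RNAs, with 0.188 as their lowest adjusted p, and left their median log2 fold change at -0.02. That median ranged from -0.05 without DMSO 4 (also without DMSO 1, GW3965 1 and GW3965 2 together) to 0.03 without DMSO 1, so its sign depends on single libraries. The median SD between libraries was 0.14 with a pseudocount of 1, as over all genes (0.14). Of the 17 genes that share windows with ESRG, 16 or 17 were higher under the alternatives that tested all of them.

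Of 706 fold changes of 31 LINC RNAs recomputed, 33 changed sign, all in genes whose log2 fold change was smaller than its SE. With library weights LINC00342 had -0.096, LINC00857 0.028, LINC00205 0.036, LINC00963 -0.019 and LINC01184 -0.015. With the 3 libraries left out the values were -0.19, 0.036, 0.036, -0.045 and -0.023. With the principal component axis LINC00342 had -0.0087, LINC00857 0.0036 and LINC02300 -0.76; with the 7SL share LINC00205 had 0.028 and LINC00963 -0.025. Leaving out single libraries gave -0.090 to 0.31 for LINC00342, -0.11 to 0.045 for LINC00857, -0.047 to 0.021 for LINC00205, -0.010 to 0.24 for LINC01351, -0.70 to 0.17 for LINC00644, -0.082 to 0.033 for LINC00920, -0.015 to 0.071 for LINC00963 and -0.0053 to 0.10 for LINC01184. Of the 23 LINC RNAs that kept their sign, 14 stayed within 1.5 times their value, and 9 did not: LINC00261 (-0.21 to -0.030), LINC00273 (-0.32 to -0.13), LINC00412 (-0.51 to -0.27), LINC00511 (-0.24 to -0.081), LINC00685 (0.12 to 0.69), LINC00704 (0.059 to 0.22), LINC01116 (0.083 to 0.28), LINC01389 (-0.81 to -0.38) and LINC02211 (0.056 to 0.19). The cause was not tested. LINC RNAs with few reads, such as LINC00644 (53) and LINC02041 (74), allow no narrow estimate.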
